A study of Rattus norvegicus with 8 samples.

Results

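The claudins, integrins, cadherins and connexins, with the zonula occludens proteins that anchor junctions to the cytoskeleton, were followed in sorted rat testis cells from young and aged animals. Members were the array probes whose transcript accession belonged to a rat gene named Cldn, Itga, Itgb, Cdh, Gja, Gjb, Gjc or Tjp followed by a number alone. This gave 81 probes for 70 of the 15154 named genes on the array. They comprised 22 claudins, 13 integrins, 19 cadherins, 13 connexins and 3 zonula occludens proteins. Another 14 rat genes with such names, among them Itga6, had no probe matched by accession and were not analysed here.

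The cells were taken from the testes of transgenic Sprague Dawley rats in which GFP is made in germ cells only. Both groups carried this transgene, and in both the cells were sorted by flow cytometry for the surface protein CD9. The young group held 4 arrays from rats of 4 months and the aged group 4 arrays from rats of 21 months. For every array, 18 ng of RNA was amplified and labelled with the Cy3 dye for a one-colour Agilent array. CD9 is present on spermatogonia and on other cells of the testis, and the labels do not say how many animals stood behind an array or that the 4 arrays of a group came from separate animals. All p-values therefore measure the spread between these arrays only.

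Claudins seal tight junctions and, between Sertoli cells, form part of the blood-testis barrier. Cadherins bind like cells to each other at adherens junctions, connexins build the channels of gap junctions, and integrins, as pairs of an alpha and a beta subunit, hold cells to the matrix. In the testis, E-cadherin marks early spermatogonia, claudin 11 and connexin 43 belong to Sertoli cells, and spermatogonial stem cells bind the laminin of the basement membrane through integrins.

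The arrays carried 63.0 to 72.0% of their probes well above background, no spot was saturated, and the 75th percentile of the signal lay between 326 and 524 intensity units. Values below are log2 signals minus that percentile of the same array, so that 0 is the 75th percentile of the array. Levels of different genes are not compared, since probes differ. Young replicate 1 stood apart from the other young arrays, and values without it are given beside the results or together near the end. All young arrays lay in one row of the slide and all aged arrays in the other, so position and age cannot be told apart. Of 9 measured spermatogonial markers all were well above background on all 8 arrays, and so were 9 of 10 spermatid markers. Markers of peritubular myoid and stromal cells were also present, 8 of 11 of them on all 8 arrays. Spermatocyte markers were higher in the aged arrays, with 5 of 7 called, beside 0.655% of all genes tested. Each of the 5 had a limma adjusted p of 0.0465, and under several alternatives given at the end no gene was called. In RNA from mixed cells, fewer cells of a type and less RNA per cell cannot be told apart.

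Many of the family members were not seen. By the scanner's mark for signal well above background, 26 of the 70 genes (37.1%) were above it on all 8 arrays, 24 on some arrays and 20 (28.6%) on none. Over all 15154 named genes, 64.3% were above background on all 8 arrays and 19.1% on none. The 3 zonula occludens genes were present on every array. Cadherins followed with 9 of 19 genes (47.4%) on all 8 arrays, integrins with 5 of 13 (38.5%), connexins with 4 of 13 (30.8%) and claudins with 5 of 22 (22.7%). Between 37 and 47 members were above background on the young arrays and between 31 and 41 on the aged arrays, so the groups overlapped.

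The claudins present on all 8 arrays were Cldn3, Cldn4, Cldn9, Cldn10 and Cldn12. Those on none were Cldn2, Cldn8, Cldn14, Cldn15, Cldn16, Cldn17, Cldn18 and Cldn20. Of the integrins, Itga1, Itga8, Itgb1, Itgb4 and Itgb5 were present throughout, and Itga5, Itgb3 and Itgb6 were never above background. E-cadherin (Cdh1), N-cadherin (Cdh2), P-cadherin (Cdh3) and VE-cadherin (Cdh5) were present on all 8 arrays together with Cdh6, Cdh15, Cdh17, Cdh22 and Cdh23, whereas Cdh7, Cdh9, Cdh10, Cdh19 and Cdh26 were on none. Among the connexins, those present throughout included Gja3, Gja4 and Gjc1, and those never above background included Gja5, Gja6 and Gjb6. Neighbours in the genome did not always share this state. Gjb2, on 6 arrays, lies next to Gjb6, which was on none. Cldn3 and its neighbour Cldn4 were both present on all 8 arrays, as were Cdh3 and its neighbour Cdh1.

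Presence in 1 age group alone was seen for 9 members. Of these, 7 (10%) were above background on young arrays only and 2 (2.86%) on aged arrays only, beside 5.46% and 2.39% of all named genes. Claudin 22 (Cldn22) was above background on 3 of 4 young and on no aged array, and was 1.89-fold higher in the young group by the bound described below. Its genomic neighbour Cldn24 was above background on 2 young arrays, with a bound of 1.28-fold. That excess rested on young replicate 4, at -5.23. The other young values of Cldn24, -6.31 to -6.17, lay within its aged range of -6.99 to -5.88. The muscle laminin receptor subunit Itga7 was above background on 3 young arrays, with a bound of 1.88-fold. For Cldn22 and Itga7 the young array without the mark was replicate 1. These bounds set the young mean, over all 4 arrays, against the higher of the measured aged value and the dimmest probe marked above background on each aged array. They lie at or close to the measured differences and are not the lower end of an interval. They have no test, and the genes were chosen after their values were seen. Cdh16 and Cdh11, on young arrays 1 and 3, and Cdh8 and Itga4, on young array 3, made up the rest of the young-only set. Cldn6 and Gjb1 were each above background on a single aged array.

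**Figure D1:**
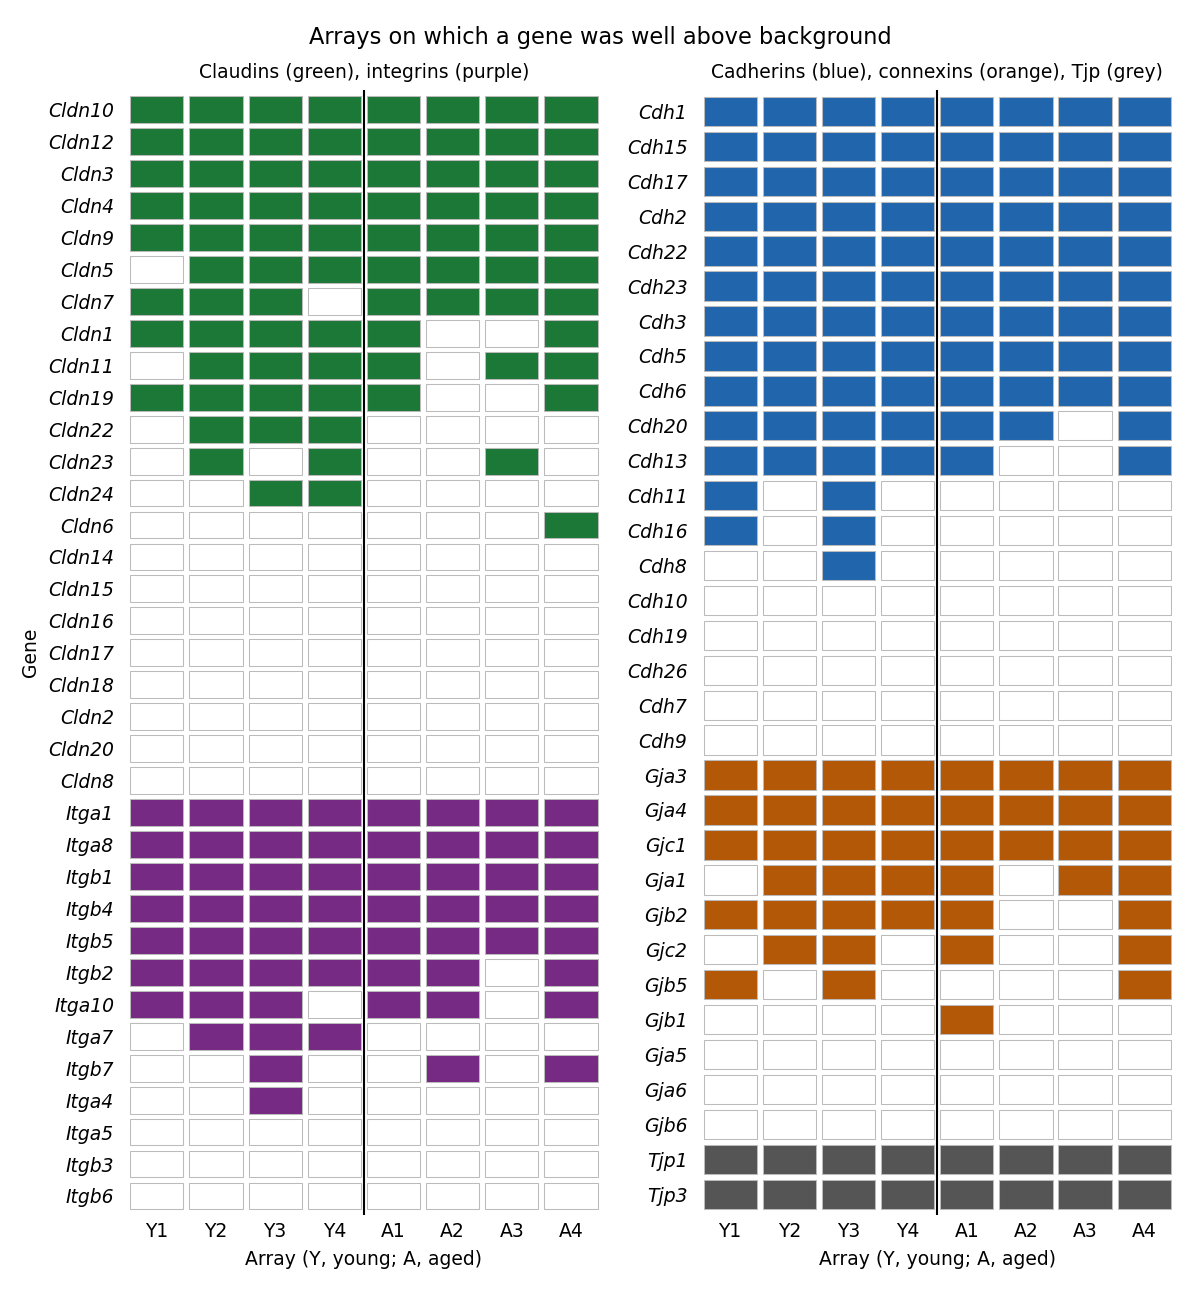
Presence of 67 of the 70 genes on each array, with young arrays Y1 to Y4 left and aged arrays A1 to A4 right of the black line in each panel. A filled square is a gene well above background by any of its probes, an open square one that was not. Genes present on all 8 arrays stand at the top of each family and those present on none at the bottom, and Cldn22 and Itga7 are filled on 3 young arrays only.

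The comparison of aged with young arrays asks how the sorted cells differ with age. It could be made for 34 members, those marked as well above background on all 4 arrays of the young or of the aged group. No member was called at an adjusted p under 0.05 by limma with Benjamini-Hochberg adjustment over all 10236 genes tested, of which 67 (0.655%) were called. Of these 51 were higher in the aged arrays, a split that was 55 of 97 with the percentile taken over spots. At an unadjusted p under 0.05 there were 7 members (20.6%), beside 31.4% of all genes tested. The aged and young values did not overlap for 3 members (Cdh13, Gja4 and Cldn3), beside 14.3% of all genes. Both shares among the members were below the background of all genes. The smallest adjusted p of any member was 0.0531, for Cdh13. Of the 34 members, 26 were above background on all 8 arrays, 6 were admitted through the young arrays alone, Cdh13 among them, and Cldn5 and Cldn7 through the aged arrays alone. A member admitted only through the group in which it is high had to differ to some degree.

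The median change of the 34 members was -0.11 (log2, aged minus young), with 20 members (58.8%) below 0 and 14 above it. Over the 26 members above background on all 8 arrays it was -0.0039, with 13 below 0. Over all genes tested the median was 0.11 and 36.6% lay below 0. Scaling to the array median adds 0.16 to every change and scaling to spike-in RNA -0.44, so that the median of all genes was 0.26 and -0.33 under them, and the families are given by their distance from it.

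The 6 integrins had a median of -0.40 (5 below 0) and lay -0.51 from the median of all genes, within -0.70 to -0.20 over the main setting and the 21 alternatives. The 11 cadherins had a median of -0.07 (6 below 0) and lay -0.18 from all genes, within -0.24 to -0.0077. With only the genes above background on all 8 arrays, which leaves out Cdh13 and Cdh20, the cadherin median was 0.10 and the distance -0.02. For the 5 connexins the median was -0.09 (3 below 0) and the distance -0.20, within -0.44 to -0.02. For the 9 claudins the median was -0.04 (5 below 0) and the distance -0.15, within -0.18 to 0.0084. The 3 zonula occludens genes had a median of 0.09 (1 below 0) and lay -0.02 from all genes, within -0.31 to 0.08. Integrins, cadherins and connexins thus lay below all genes in each of the 22 settings, claudins in 21 and zonula occludens genes in 16. Scaling to the array median, to spike-in RNA or to the percentile over spots cannot change these distances, nor can the replicate block. Their part in the counts was fixed beforehand, and most other settings kept the same filter. As plain values, the medians of claudins, cadherins and connexins were above 0 with scaling to the array median (0.11, 0.08 and 0.07), and that of the zonula occludens genes was -0.35 with scaling to spike-in RNA. Without young replicate 1 the medians were -0.53 for integrins, -0.07 for cadherins, 0.02 for connexins, 0.06 for claudins and 0.14 for zonula occludens genes, beside 0.17 for all genes. Differences between families were not tested, since their members share the arrays.

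**Figure D2:**
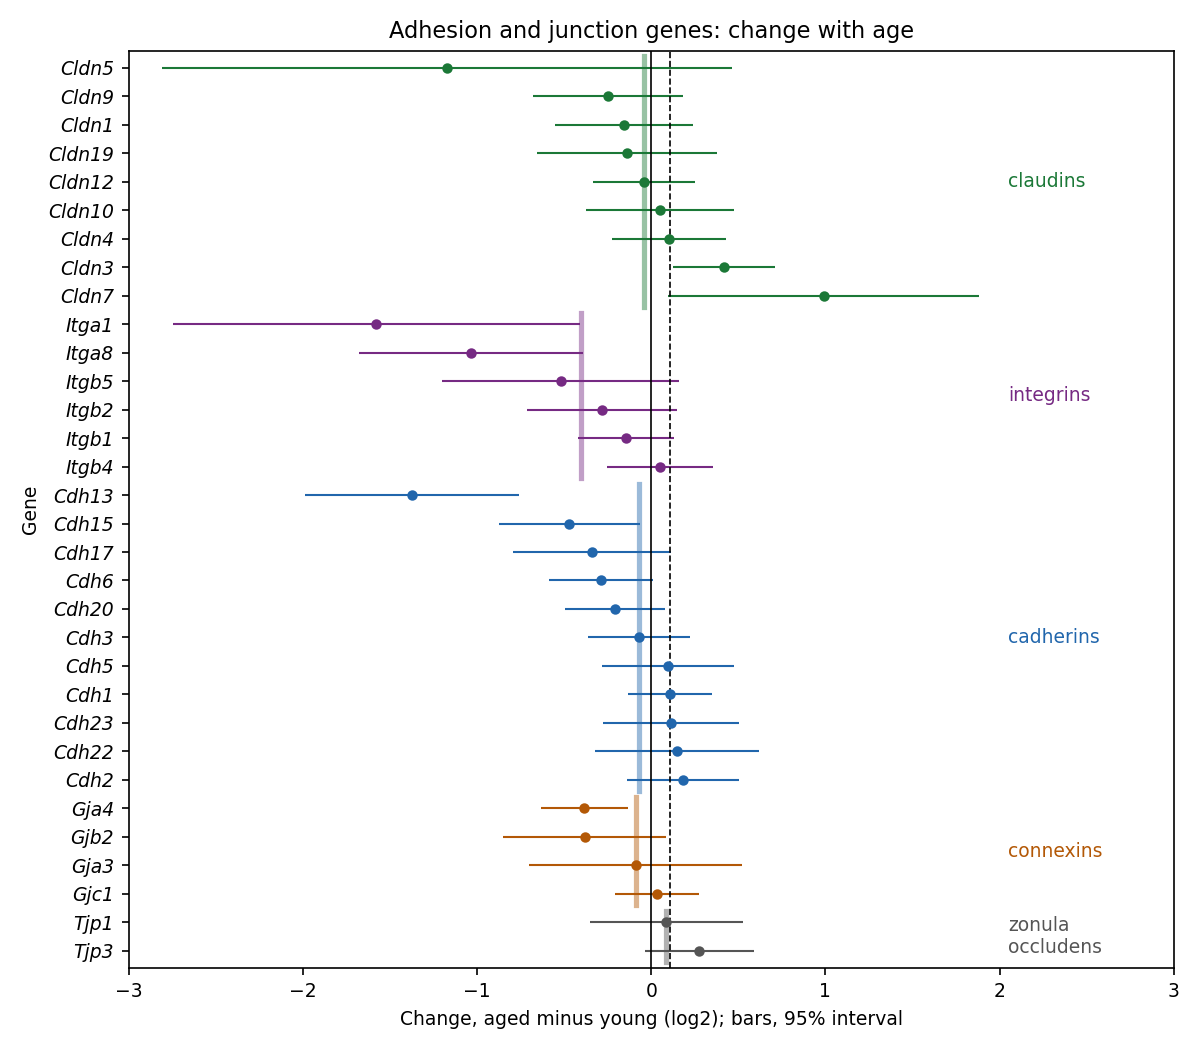
Change with age of 32 of the 34 tested genes (points) with 95% intervals from limma (bars), in log2 units, ordered within each family. Thick pale lines mark the family medians over all tested members, the solid black line is 0 and the dashed line the median of all genes tested (0.11). The integrin median is -0.40, and the signs of the other medians turn under scalings that move all genes alike. The 3 genes with the lowest changes are Itga1, Cdh13 and Cldn5.

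Among the tested integrins the changes farthest from 0 were those of Itga1, Itga8 and Itgb5. The 2 tested alpha subunits had changes of -1.58 and -1.03, whereas the 4 tested beta subunits had a median of -0.21. The other alpha subunits were not tested and differed in direction. Measured changes were 0.59 for Itga10, on 6 arrays above background, and -0.91 for Itga7, on 3. They were -0.79 for Itga4, on 1, and 0.19 for Itga5, on none. Itga1 encodes the alpha subunit of a collagen receptor that is prominent on smooth muscle and stromal cells. Its log2 values were -2.76, -0.63, -0.30 and -0.28 on young arrays 1 to 4 and -2.09, -3.02, -2.38 and -2.80 on aged arrays 1 to 4. Young replicates 2 to 4 were thus all above the aged arrays, and young replicate 1 lay inside the aged range. In signal, Itga1 ran from 44.6 to 409.5 intensity units over the 8 arrays. The change was -1.58 (SE 0.52, 95% interval -2.75 to -0.41) with a limma adjusted p of 0.0931. Without young replicate 1 it was -2.17 with an adjusted p of 0.00301, and over all alternatives the adjusted p ran from 0.00301 to 0.242. Normexp background correction, which lifts dim signals by an offset, gave -1.09 with percentile and -1.02 with quantile scaling.

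Itga8, the alpha subunit of a receptor for nephronectin and other matrix proteins on mesenchymal cells, had the same layout. It stood at -3.68, -2.79, -2.50 and -2.31 on young arrays 1 to 4 and at -3.50, -3.95, -4.17 and -3.79 on aged arrays 1 to 4. The groups overlapped through young replicate 1 alone. The change was -1.03 (SE 0.28, 95% interval -1.67 to -0.39, limma adjusted p = 0.0723). It was -1.32 without young replicate 1, with an adjusted p of 0.00390 in a range over the alternatives of 0.00390 to 0.210. With normexp it was smaller, at -0.37 with percentile and -0.32 with quantile scaling. A second Itga8 probe was above background on none of the arrays. Itgb5, a beta subunit that pairs with the alpha V chain to bind vitronectin, ran from -2.95 to -1.92 on the young and from -3.65 to -2.42 on the aged arrays, again with young replicate 1 lowest in its group. Its change was -0.52 (SE 0.30, limma adjusted p = 0.260), and -0.72 without young replicate 1, where the groups did not overlap. With normexp it was -0.23 and -0.17. A second Itgb5 probe, tested on its own, gave -0.26 (SE 0.35, limma adjusted p = 0.621 over 11950 probes).

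Itgb1, the beta subunit shared by most matrix receptors and by those of spermatogonial stem cells, varied little. It stood at -0.17, -0.13, -0.05 and -0.22 on young arrays 1 to 4 and at -0.48, -0.27, -0.38 and -0.02 on aged arrays 1 to 4. The change was -0.15 (95% interval -0.42 to 0.13, limma adjusted p = 0.420). Aged replicate 4 was the highest of all 8, and the groups overlapped. A second Itgb1 probe, tested on its own after the data were seen, gave -0.31 (SE 0.13, limma adjusted p = 0.137 over 11950 probes), with no overlap between the groups. The leukocyte beta subunit Itgb2 had a change of -0.28 (limma adjusted p = 0.326), and of -0.0021 and -0.0068 with normexp. Itgb4, which pairs with the alpha 6 chain to bind laminin, had a change of 0.05 (95% interval -0.25 to 0.35).

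Claudins included the tested member with the widest spread between arrays of a group. Cldn5, the main claudin of blood vessel endothelium, stood at -5.04, -2.36, -1.56 and -1.82 on young arrays 1 to 4 and at -3.69, -5.01, -3.41 and -3.36 on aged arrays 1 to 4. Young replicates 2 to 4 were above every aged array, and young replicate 1 and aged replicate 2 were the lowest of the 8. Cldn5 was not well above background on young replicate 1, and its signal ran from 9.89 to 170.8 intensity units. The change was -1.17 (SE 0.73, 95% interval -2.81 to 0.47, limma adjusted p = 0.288). It was -1.95 with an adjusted p of 0.0110 without young replicate 1, in a range over the alternatives of 0.0110 to 0.558, and with normexp it was -0.63 and -0.57.

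The 250 bases before the annotated start of Itga1, Itga8 and Cldn5 are shown because these genes were low on young replicate 1 and on the aged arrays. The layouts were not the same throughout. In Cldn5 young replicate 1 and aged replicate 2 lay far below the other aged arrays, whereas in Itga1 and Itga8 young replicate 1 lay inside the aged range. They were taken from RefSeq on build GRCr8, where 46 of the 70 members had an entry, and all 3 lie on the minus strand. Capitals mark the GC box (GGGCGG on either strand). Itga1 is from chr2:48545284-48545533, Itga8 from chr17:80410634-80410883 and Cldn5 from chr11:95718599-95718848, each written 5′ to 3′.
Itga1: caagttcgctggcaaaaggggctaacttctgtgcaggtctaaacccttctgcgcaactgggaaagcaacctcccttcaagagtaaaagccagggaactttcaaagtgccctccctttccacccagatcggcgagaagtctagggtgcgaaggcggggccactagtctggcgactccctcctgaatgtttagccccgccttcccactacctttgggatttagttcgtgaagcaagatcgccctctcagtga
Itga8: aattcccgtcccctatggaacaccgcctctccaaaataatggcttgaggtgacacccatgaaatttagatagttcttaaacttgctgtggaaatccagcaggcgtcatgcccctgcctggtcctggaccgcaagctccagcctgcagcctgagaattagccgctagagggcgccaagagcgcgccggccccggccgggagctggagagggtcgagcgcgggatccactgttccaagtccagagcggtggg
Cldn5: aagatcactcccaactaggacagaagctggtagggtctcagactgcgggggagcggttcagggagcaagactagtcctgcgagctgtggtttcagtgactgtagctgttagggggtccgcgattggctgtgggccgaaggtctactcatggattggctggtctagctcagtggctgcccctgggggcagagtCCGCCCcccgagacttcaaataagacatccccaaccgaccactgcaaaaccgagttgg
Their GC content was 54.4, 59.6 and 58.4%. The GC box was found once, in Cldn5. Over 33469 rat promoters of the same length it was found in 30.5%, and among the 46 members in 20 (43.5%). The letters TATAAA, on either strand, were found in none of the 3, in 4 of the 46 members (8.7%) and in 12.9% of all promoters. The CArG box, the binding motif of serum response factor in smooth muscle genes, was also in none of the 3, in 1 of the 46 members (2.17%) and in 1.5% of all promoters. These searches describe the letters in the windows and no more.

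Cldn3 and Cldn7, tight junction claudins of many epithelia, had changes above 0. Cldn3 stood at -3.03, -3.23, -3.42 and -3.12 on young arrays 1 to 4 and at -2.64, -2.63, -2.96 and -2.89 on aged arrays 1 to 4, so that every aged array was above every young one. The change was 0.42 (SE 0.13, 95% interval 0.13 to 0.71, limma adjusted p = 0.0849), and it was -0.016 with scaling to spike-in RNA. Without young replicate 1 it was 0.48 with an adjusted p of 0.0222, in a range over the alternatives of 0.0222 to 0.952. With normexp it was 0.23 and 0.27. Cldn4, the neighbour of Cldn3, had a change of 0.10 (95% interval -0.23 to 0.43). Cldn7 lay between -5.83 and -4.51 on the young and between -5.23 and -3.51 on the aged arrays, with a change of 0.99 (SE 0.40, limma adjusted p = 0.132). Aged replicate 3 lay inside the young range. The signals of Cldn7 were dim, from 7.20 to 46.0 intensity units, and with normexp its change was 0.26 and 0.24. Of the remaining tested claudins, Cldn9 had a change of -0.25 (limma adjusted p = 0.384) and Cldn1 of -0.16 (0.550), the latter being 0.033 with quantile scaling.

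Claudin 11 (Cldn11), a barrier claudin of Sertoli cells, and connexin 43 (Gja1), the main connexin of Sertoli and Leydig cells, shared a layout. Each was well above background on 6 arrays, and the same pair of arrays, young replicate 1 and aged replicate 2, lacked the mark. Neither was above background on every array of a group, so neither was tested. Cldn11 stood at -5.47, -3.41, -3.53 and -3.69 on young arrays 1 to 4 and at -3.69, -5.27, -3.22 and -4.06 on aged arrays 1 to 4. Gja1 stood at -6.06, -3.55, -3.51 and -3.07 on young arrays 1 to 4 and at -3.02, -6.71, -3.27 and -4.05 on aged arrays 1 to 4. In both genes 1 array of each group was far below the rest. The same pair of arrays was also lowest in Cldn5 and Itga7, so it is not particular to Cldn11 and Gja1. The group means were close, at -4.02 (SD 0.97, n = 4) in young and -4.06 (SD 0.88, n = 4) in aged arrays for Cldn11, and at -4.05 (SD 1.36, n = 4) and -4.26 (SD 1.69, n = 4) for Gja1.

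Of the 5 tested Sertoli markers, Clu and Aard were low on the same arrays and the other 3 were not. Clu, the abundant secreted protein clusterin, stood at 1.54 on young replicate 1, at 1.95 on aged replicate 2 and between 2.90 and 3.50 on the others. Aard stood at -1.93 and -2.52 on them and between -0.61 and 0.11 elsewhere. Rhox5, a homeobox gene of Sertoli cells and the only called marker of the list (0.82, limma adjusted p = 0.0465), and Inhbb, a subunit of inhibin, were highest of all 8 arrays on aged replicate 2, at -0.76 and -0.16. Dhh, the hedgehog ligand of Sertoli cells, was at -4.57 there, the highest of the aged arrays. The mean of the 5 markers, each gene centred on its own mean, was -0.51 on young replicate 1, -0.35 on aged replicate 2 and between -0.19 and 0.41 on the other arrays, and its low values rest on Clu and Aard. Of 9 measured Sertoli markers, 4 were above background on all 8 arrays, and Amh, Fshr, Wt1 and Gata4 on 4 to 6. The same pair of arrays was also lowest in the means of other lists, so it is not particular to Sertoli markers. The Leydig mean was -0.74 on both arrays and between -0.07 and 0.57 on the others. That of macrophage markers was -0.50 on young replicate 1, -1.40 on aged replicate 2 and between -0.40 and 1.02 on the others. The part of any of these cells in the values of Cldn11 and Gja1 was not tested.

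**Figure D3:**
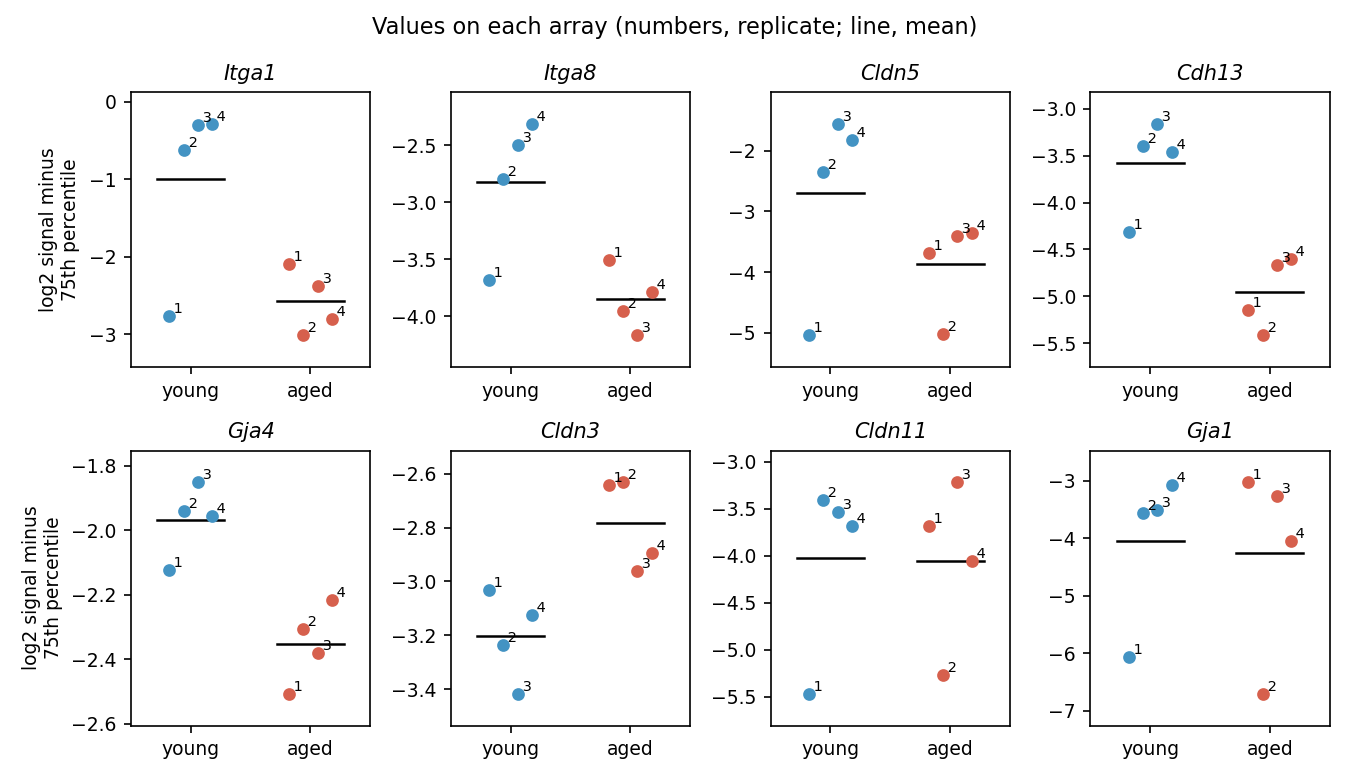
Log2 signal minus the array's 75th percentile for 8 genes, with 1 point for each array (numbers give the replicate) and a line at the group mean. Each panel has its own vertical scale. Young replicate 1 lies with or below the aged arrays in Itga1, Itga8 and Cldn5, the groups do not overlap in Cdh13, Gja4 and Cldn3, and young replicate 1 and aged replicate 2 lie far below the others in Cldn11 and Gja1.

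Changes of the 11 tested cadherins lay between -1.37 and 0.18, and 1 gene stood apart. T-cadherin (Cdh13), which is held in the membrane by a lipid anchor and is known from blood vessels and smooth muscle, stood at -4.31, -3.40, -3.16 and -3.46 on young arrays 1 to 4. On aged arrays 1 to 4 it stood at -5.14, -5.41, -4.66 and -4.60, all below the lowest young value. It was well above background on 4 young but only 2 aged arrays, with signals of 8.45 to 21.6 intensity units in the aged group, close to the detection limit. The change was -1.37 (SE 0.27, 95% interval -1.99 to -0.76, limma adjusted p = 0.0531). Without young replicate 1 it was -1.62 with an adjusted p of 0.00363, and over all alternatives the adjusted p ran from 0.00363 to 0.176. With normexp the change was -0.37 and -0.36. Cdh13 was tested only because all its young values, the higher ones, were above background. The promoter table held no entry for Cdh13.

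E-cadherin (Cdh1), an adhesion protein of undifferentiated spermatogonia, stood at -1.44, -1.55, -1.65 and -1.68 on young arrays 1 to 4 and at -1.60, -1.38, -1.53 and -1.39 on aged arrays 1 to 4. The values overlapped, and the change was 0.11 (95% interval -0.14 to 0.35, limma adjusted p = 0.512). N-cadherin (Cdh2), found between Sertoli and germ cells, ran from -2.06 to -1.68 in the young and from -1.87 to -1.38 in the aged arrays, with a change of 0.18 (95% interval -0.14 to 0.51, limma adjusted p = 0.389). Under scaling to spike-in RNA these changes were -0.33 and -0.25. P-cadherin (Cdh3), next to Cdh1 in the genome, had a change of -0.07 (95% interval -0.37 to 0.22). These intervals leave out changes of 1 log2 unit in either direction.

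VE-cadherin (Cdh5), which joins endothelial cells, did not share the layout of Cldn5. It stood at -2.01, -2.79, -2.68 and -2.53 on young arrays 1 to 4, with replicate 1 the highest, and between -2.48 and -2.32 on the aged arrays. The change was 0.10 (95% interval -0.28 to 0.48, limma adjusted p = 0.715), and -0.34 with scaling to spike-in RNA. Other endothelial markers also differed among themselves. Kdr, a receptor for vascular endothelial growth factor, had a change of -1.02 (limma adjusted p = 0.0871) and Eng, a co-receptor of endothelium, one of -0.71 (0.119), whereas Pecam1 had -0.11 and Plvap 0.07. Kdr (-1.34) and Eng (-0.85) were called without young replicate 1. Of 7 measured endothelial markers 4 were on all 8 arrays, Emcn was on 2, Tie1 on 1 and Tek on none.

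The muscle cadherin Cdh15 ran from -3.49 to -2.95 in the young and from -4.10 to -3.48 in the aged arrays, which overlapped through aged replicate 2. Its change was -0.47 (SE 0.18, 95% interval -0.87 to -0.07, limma adjusted p = 0.120), and with normexp it was -0.12 and -0.08. Cdh17, Cdh6 and Cdh20 had changes of -0.34, -0.29 and -0.21 with limma adjusted p-values of 0.267, 0.172 and 0.281. They were -0.05 for Cdh17, 0.0011 for Cdh6 and 0.0013 for Cdh20 with normexp background correction and percentile scaling.

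Connexins were led by connexin 37 (Gja4), a gap junction protein of endothelium and of the oocyte. It stood at -2.12, -1.94, -1.85 and -1.96 on young arrays 1 to 4 and at -2.51, -2.30, -2.38 and -2.22 on aged arrays 1 to 4, with all aged values below all young ones. The difference was small but so was the spread, with SDs of 0.11 and 0.12 (n = 4 each). The change was -0.38 (SE 0.11, 95% interval -0.63 to -0.14, limma adjusted p = 0.0778). Without young replicate 1 it was -0.44 with an adjusted p of 0.0137, in a range over the alternatives of 0.0137 to 0.252, and with normexp it was -0.18 and -0.13. Connexin 26 (Gjb2), on 4 young and 2 aged arrays, had the same fitted change of -0.38 with a wider interval of -0.85 to 0.09 and a limma adjusted p of 0.231. Its signals were dim, from 8.64 to 18.9 intensity units, and with normexp the change was -0.010 and -0.025.

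Connexin 45 (Gjc1) kept close values on all arrays, from -1.12 to -0.82 in the young group and with 3 aged arrays at -0.94, -0.81 and -0.93 and the other inside the young range, and its change was 0.03 (95% interval -0.21 to 0.28, limma adjusted p = 0.854; -0.40 with scaling to spike-in RNA).

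The zonula occludens proteins link claudins and connexins to actin. Tjp3 stood at 1.17, 1.16, 0.82 and 0.91 on young arrays 1 to 4 and at 1.31, 1.57, 1.18 and 1.11 on aged arrays 1 to 4, with a change of 0.28 (95% interval -0.04 to 0.59, limma adjusted p = 0.203) that was -0.16 with scaling to spike-in RNA. Tjp1 had a change of 0.09 (95% interval -0.35 to 0.53, limma adjusted p = 0.783). A second Tjp1 probe went the other way. It stood at -3.20 to -2.90 on the young and at -3.86 to -3.22 on the aged arrays without overlap, with a change of -0.50 (SE 0.16, limma adjusted p = 0.0932 over 11950 probes). The direction for Tjp1 thus depended on the probe, and the mean of both gave -0.21.

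Leaving out young replicate 1 raised the calls to 7 members, among them Cdh13, Cldn3, Cldn5, Gja4, Itga1 and Itga8, and those over all genes from 67 to 3776 (36.9%). The 7 members of 34 were thus a smaller share than that of all genes. The median of the 34 members was then -0.0073. Of the other named members not called there, the integrins had changes of -0.34 for Itgb2, -0.15 for Itgb1 and 0.14 for Itgb4. The claudins had 1.19 for Cldn7, -0.08 for Cldn9, -0.04 for Cldn1 and 0.17 for Cldn4. Among the cadherins the changes were -0.54 for Cdh15, -0.29 for Cdh6, -0.18 for Cdh17, -0.15 for Cdh20, -0.07 for Cdh3, 0.15 for Cdh1, 0.24 for Cdh2 and 0.26 for Cdh5, whose groups then did not overlap. For Gjb2, Gja3 and Gjc1 they were -0.35, 0.03 and 0.02, and for Tjp3 and Tjp1 0.33 and 0.14.

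The mean of the integrins, with each gene centred on its own mean, was -0.23 on young replicate 1, 0.43 to 0.54 on young replicates 2 to 4 and -0.53 to -0.09 on the aged arrays. Myoid and stromal markers lay over the same arrays in the same order of groups. Their mean was -0.70 on young replicate 1, 1.13 to 1.30 on young replicates 2 to 4 and -1.50 to -0.34 on the aged arrays. All 9 tested markers of these cells had changes below 0, with a median of -1.57. None was called at an adjusted p under 0.05 by limma, but 9 had an unadjusted p under 0.05. The smooth muscle genes Myh11 and Acta2 had changes of -2.18 and -1.57. Cnn1 was above background on 3 arrays and Lum on none. Spermatid markers had a like order, at -0.49, at 0.53 to 1.04 and at -1.12 to -0.10, as did those of macrophages, at -0.50, at 0.54 to 1.02 and at -1.40 to 0.47. The part of these cells in the integrin values was not tested. The low integrin mean on young replicate 1 rested on Itga1, Itga8 and Itgb5. On that array Itgb1, at -0.17, lay within its group and Itgb4, at -0.39, was the highest young value. Itgb2 was at -4.33 there, close to young replicate 4 at -4.31. Family means of the cadherins ran from 0.05 to 0.15 in the young and from -0.17 to -0.03 in the aged arrays. They include Cdh13 and Cdh20, both higher in the young arrays and admitted to the test through these alone. The filter thus had a part in this gap, which is no evidence of a difference of the family. Family means of the claudins (-0.10 to 0.11 and -0.13 to 0.11) and the connexins (-0.08 to 0.28 and -0.25 to 0.07) overlapped between the groups.

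**Figure D4:**
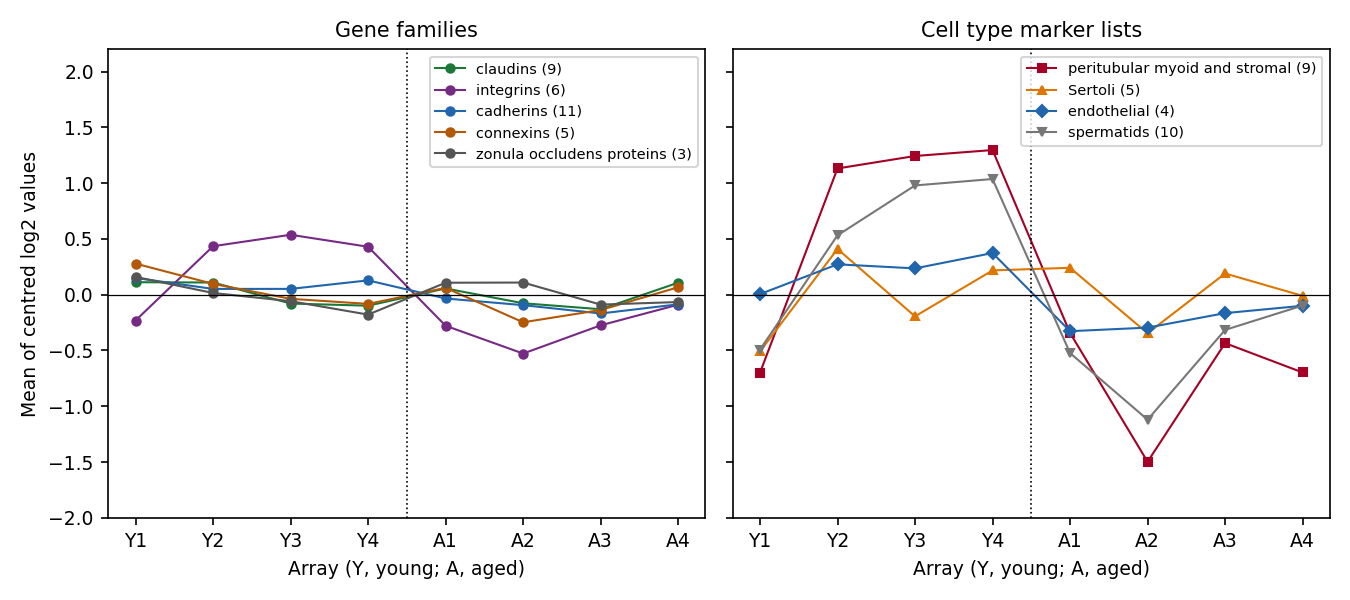
Mean over the tested genes of each family (left) and each marker list (right) on young arrays Y1 to Y4 and aged arrays A1 to A4, after the mean of the 8 values of a gene was subtracted (log2 units; numbers of genes in parentheses). The means of the integrins and of the myoid and stromal markers are high on Y2 to Y4 and low on Y1 and the aged arrays. The low integrin mean on Y1 rests on Itga1, Itga8 and Itgb5. The claudin mean stays within -0.13 to 0.11 on every array, although Cldn5 and Cldn7 had opposite changes of -1.17 and 0.99.

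Of 71 listed partners of these proteins, 55 were on the array and 35 were tested. Their median change was 0.03, with 20 above and 15 below 0, none was called by limma and 8 (22.9%, beside 31.4% of all genes) had an unadjusted p under 0.05. Without young replicate 1, 13 were called, 8 higher and 5 lower, a share of 37.1% beside 36.9% of all genes. Among 12 tested integrin adaptors 9 (75%) had changes above 0, beside 63.4% of all genes, and their median was 0.11, as over all genes. Itgb1bp1, which binds the tail of the beta 1 chain, stood at 0.26 to 0.43 on the young and at 0.68 to 0.83 on the aged arrays, with no overlap and a change of 0.42 (SE 0.10, limma adjusted p = 0.0561). The integrin-linked kinase Ilk was at 1.65 to 1.90 and at 1.95 to 2.11, also with no overlap, and had a change of 0.29 (SE 0.10, limma adjusted p = 0.104). With scaling to spike-in RNA these changes were -0.016 for Itgb1bp1 and -0.14 for Ilk. Lims2, an adaptor that binds Ilk, went the other way with a change of -1.28 (limma adjusted p = 0.114), and young replicate 1 at -4.27 lay with the aged arrays. Of 12 adherens junction genes 8 (66.7%) had changes below 0, beside 36.6% of all genes, but their median was only -0.03. Vcl, Nectin2, Ctnnb1 and Ctnna1, among those below 0, lay between -0.08 and -0.0087. The neural alpha catenin Ctnna2 had a change of -1.37 (SE 0.40, limma adjusted p = 0.0782) and Nectin3, a partner of nectins at the junction of Sertoli cells and spermatids, one of -1.05 (SE 0.32, limma adjusted p = 0.0848). F11r, the junctional adhesion molecule A of tight junctions, stood at -1.999 to -1.56 on the young and at -2.39 to -2.03 on the aged arrays, with no overlap and a change of -0.46 (SE 0.14, limma adjusted p = 0.0801). Of the other 7 tested tight junction genes 5 had changes above 0. With young replicate 1 left out, the changes were 0.45 for Itgb1bp1, 0.29 for Ilk and -1.83 for Lims2. They were -1.76 for Ctnna2, -1.33 for Nectin3 and -0.55 for F11r. All of these named partners were then called, at limma adjusted p-values of 0.00301 to 0.0478, beside 36.9% of all genes.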

How the data were processed

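The deposited signals are linear intensity values that, per the file headers, Agilent Feature Extraction 10.7.3.1 had corrected for background and a spatial trend but not scaled between arrays. The submitters' processing notes give version 12.5. The probes were designed on rat build rn4, per the file headers. The authors also deposited a series table of log2 values, used as an alternative, whose scaling before centring is not given in the sources used here.

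Control and outlier spots were left out, spots of a probe were averaged as log2 values, and each array's 75th percentile over non-control probes was subtracted. Of 30367 probes, 17998 were named through the RefSeq table of assembly GRCr8, which served for names, neighbours and promoter sequences. A probe counted as above background where at least 0.5 of its spots carried the scanner's mark, and was tested if so on every array of at least 1 group. The probe of highest mean stood for a gene, which concerned 7 tested members with several probes. Aged and young arrays (4 each) were compared with two-sided tests in limma 3.58.1 (lmFit, then eBayes; moderated df, 9.15) under R 4.3.3, where jsonlite 2.0.0 and the data.table package, version 1.17.8, read the files. P-values were adjusted by Benjamini-Hochberg over all 10236 genes tested. The procedure was tested on simulated data. The number of arrays limits the precision.

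Genes were named if called, if their groups did not overlap, if among the 5 smallest p-values of their family, or if on a short list (Cldn3, Cldn5, Cldn11, Itga6, Itgb1, Cdh1, Cdh2, Cdh5, Gja1, Gja4, Gjc1 and Tjp1 among them). Results of some members are not reported here. Any member could be named for the arrays on which it was present. Of the partners, the 6 with the smallest p were named. Genes named outside these rules were chosen after their values were seen: Cdh3, Cldn4, Itgb4, Itga4, Itga5, Itga7 and Itga10 with a value, and the marker genes. The members and lists were chosen with earlier results of these data known. Alternatives covered scaling (quantile, array median, spike-in RNA, percentile over spots), normexp background correction (offset 50), filters on dim probes, the log2 values of the authors, unnamed probes, outlier spots, several probes of a gene, the replicate number as a block, and leaving out each array.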

Additional observations from a re-analysis of the deposited data

Results flagged for a closer look

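In 5 of 66 groups of 4 arrays checked, 1 array lay far from the rest of its group by Dixon's ratio of gap to range, past a critical value that about 5% of groups exceed by chance. In every one of the 5 the array was young replicate 1. The ratio was 0.864 for Cldn11, at a log2 value of -5.47, and 0.838 for Gja1, at -6.06. It was 0.862 for Itga1, at -2.76, and 0.86 for the mean of the integrins, at -0.23. In Cldn9, where the ratio was 0.839, the same array was the highest and not the lowest of its group, at -2.58.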

How the results depend on the processing

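Of the 26 named genes tested, 13 kept their direction under all alternatives run, up to 21 each, and 7 were called under at least 1. The number of members called, 0 at first, was 2 with scaling to the array median (Cdh13 and Cldn3), 1 with normexp and percentile scaling (Cdh13) and 0 to 7 when each array was left out, the 7 without young replicate 1. Over all genes the 67 calls became 1330 with scaling to the array median, 630 with normexp and percentile scaling (363 higher, beside 51 of the 67) and 253 (219 higher) with normexp and quantile scaling. They became 0 with scaling to spike-in RNA, with no filter on dim probes and with unnamed probes tested too, where limma gave 3448, 3339 and 4929 at an unadjusted p under 0.05. Leaving out each array gave 0 to 3776, the latter without young replicate 1 and 0 or 1 without any of the others. With the replicate block there were 0 calls over all genes (3231 at an unadjusted p under 0.05). The replicate numbers did not pair the arrays, since the deviations of same-numbered arrays correlated at -0.26, -0.12, 0.44 and 0.35. No young array correlated best with the aged array of its own number. Signs turned in some named genes. Scaling to the array median and to spike-in RNA adds a constant to every change (0.16 and -0.44), so the turns under them are a shift of all genes alike. The first gave 0.0087 for Itgb1 and 0.065 for Gja3. The second gave -0.016 for Cldn3, -0.33 for Cdh1, -0.25 for Cdh2, -0.34 for Cdh5, -0.40 for Gjc1, -0.35 for Tjp1 and -0.16 for Tjp3. For the other turns the cause was not tested. Quantile scaling gave 0.033 for Cldn1 and 0.11 for Gja3. Normexp with percentile scaling gave 0.0031 for Cldn1, 0.0013 for Cdh20, 0.0011 for Cdh6 and 0.032 for Gja3, and with quantile scaling 0.023 for Gja3. The mean of a gene's probes gave -0.21 for Tjp1. The percentile taken over spots, an alternative added after seeing the data, gave -0.022 for Gjc1. Leaving out each array gave -0.33 to 0.14 for Gja3, -0.0011 to 0.26 for Cdh5, -0.025 to 0.078 for Gjc1 and -0.10 to 0.19 for Tjp1. Members near background, such as Cdh13 in the aged arrays, are limited by signal over background.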
